A study of Mus musculus with 16 samples.

Results

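miR-146a and miR-146b are paralogous microRNAs, short RNAs that pair with messenger RNAs through the seed near their 5′ end and lower the output of those messengers. They were followed here in mouse liver tumours and non-tumour liver by taking every array probe whose gene name was mmu-miR-146a or mmu-miR-146b. These were 2 of the 566 mouse miRNAs on the array, each read by 2 probes of 10 spots. The pair was selected on the measured level of miR-146b in Ha-ras-mutated tumours, which was already known, so comparisons of miR-146a and miR-146b with those tumours are descriptions given with no test; p-values with those tumours appear only for other miRNAs.

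The 16 samples came from male C3H/HeJ mice, 1 single-colour Agilent array per sample. Ha-ras-mutated tumours (n = 3) and the livers labelled as their controls (n = 3) carried water as the agent in the labels and are called Ha-ras tumours and untreated controls. Ctnnb1-mutated tumours (n = 7; Ctnnb1 encodes β-catenin) and the livers labelled as their controls (n = 3, numbered 4 to 6) carried phenobarbital, a barbiturate that promotes liver tumours after a carcinogen, and are called Ctnnb1 tumours and phenobarbital controls. The design text gives 1 injection of the carcinogen DEN (diethylnitrosamine), at 10 or 90 µg per g of mouse, given to animals aged 2 or 6 weeks, a gap of 2 weeks, and then 28 to 36 weeks on diet with 0.05% phenobarbital or without it. The sample labels instead give 27 weeks of treatment, and their treatment protocol has phenobarbital dosed through the water bottle over 28 days. The dose, age and duration for each sample were not given in the sources used here, nor whether the control livers had received DEN, so "untreated" means only without phenobarbital. Tumour genotype and phenobarbital went together and cannot be told apart between the tumour groups. The labels do not say how many mice stand behind a group, so p-values measure only the spread between these samples.

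miR-146 is best known from innate immunity. Transcription of the miR-146a gene is switched on by NF-kappaB downstream of Toll-like and interleukin-1 receptors. The mature miRNA lowers IRAK1 and TRAF6, signalling proteins downstream of those same receptors, which closes a negative feedback loop. miR-146a is abundant in lymphocytes and myeloid cells. miR-146b comes from a separate gene on another chromosome, is predicted to act on much the same messengers because the seed is shared, and is known for its high level in papillary thyroid carcinoma.

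The mature sequences are shown because array probes had to tell them apart. All 3 array names of the family matched the RefSeq table (build GRCm38.p6), and the seed (bases 2 to 8) is in capitals.
miR-146a: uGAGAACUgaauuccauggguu
miR-146b: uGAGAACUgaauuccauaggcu
miR-146a lies at chr11:43374435-43374456 on the minus strand, in a hairpin that overlaps no other annotated gene and sits between Atp10b and Gm5782. miR-146b lies at chr19:46342790-46342811 on the plus strand, in a hairpin that overlaps the annotated gene Gm36493, with Cuedc2 and 2310034G01Rik on either side. Among 1679 mature names in the table, these 2 alone held the seed GAGAACU. Of the 22 bases 20 were identical. Counted from the 5′ end, the differences from miR-146a to miR-146b were G18A and U21C, both in the 3′ part and outside the seed, as capitals mark here.
miR-146a: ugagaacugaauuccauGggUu
miR-146b: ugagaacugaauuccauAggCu
The opposite strand of the miR-146b hairpin, called miR-146b* on the array and miR-146b-3p in RefSeq, was also measured, at chr19:46342828-46342849 on the plus strand.
miR-146b*: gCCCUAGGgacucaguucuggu

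The arrays detected 83 to 117 mouse miRNAs per sample, and no spot was saturated. The 5 hepatocyte miRNAs examined (miR-122, miR-192, miR-194, miR-101a and miR-101b) were detected on all 16 arrays, so the liver label was borne out by them. Levels are log2 scaled intensities with a floor at 4.64, the median over arrays of the lowest signal that counted as detected. A probe counted as detected where over 50% of its spots were well above background by the scanner software's flag. Levels of different miRNAs depend on their probes and are not compared with each other, whereas changes between groups are. A miRNA entered the limma fit if all arrays of some group detected it, which 96 did.

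miR-146a was detected in all samples at a similar level near the floor. Its log2 level was 4.85, 5.17 and 5.44 in untreated controls 1, 2 and 3, and 5.27, 5.18 and 5.16 in phenobarbital controls 4, 5 and 6. It was 5.49, 4.83 and 5.49 in Ha-ras tumours 1, 2 and 3. In the 7 Ctnnb1 tumours it ran from 4.94 to 5.59 with a median of 5.33. Every group overlapped every other, and the phenobarbital controls spread least.

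**Figure D1:**
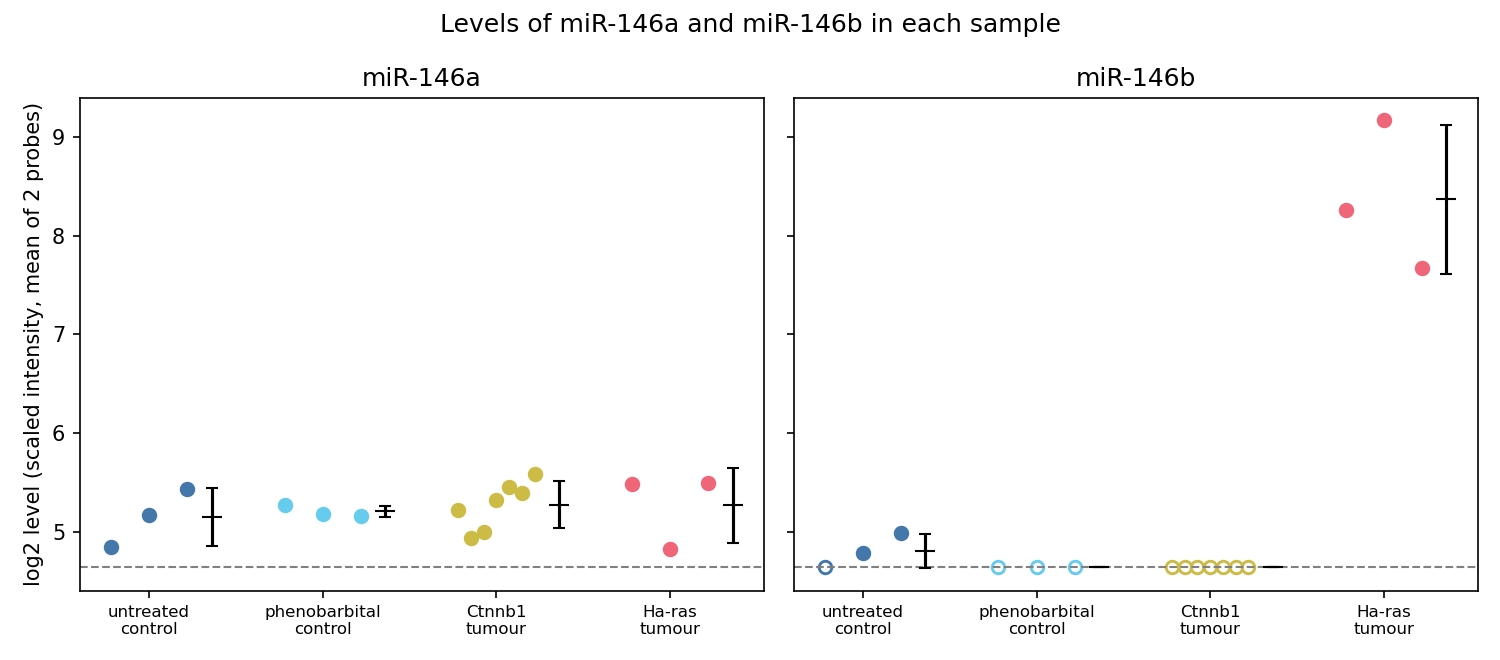
Log2 level (scaled intensity, mean of 2 probes, floor at 4.64) of miR-146a and miR-146b in each of the 16 samples, by group; each point is 1 sample. miR-146a lies between 4.83 and 5.59 in all groups, whereas miR-146b is at 7.67 to 9.17 in the 3 Ha-ras tumours and at 4.99 or below in the other 13 samples.

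In order, the mean log2 levels of miR-146a were 5.28 ± 0.24 (SD, n = 7) in Ctnnb1 tumours, 5.27 ± 0.38 in Ha-ras tumours, 5.21 ± 0.06 in phenobarbital-fed controls and 5.15 ± 0.29 in untreated ones (n = 3 each). No neighbours in this order differed beyond their spread. Ctnnb1 tumours were above phenobarbital controls by 0.07 on the log2 scale (SE 0.17, 95% interval -0.30 to 0.44, limma adjusted p = 0.822). Of the 96 miRNAs tested in that comparison, 8 (8.33%) passed an adjusted p of 0.05, all of them lower in the tumours. Phenobarbital controls were above untreated controls by 0.05 (SE 0.21, interval -0.38 to 0.49, limma adjusted p = 0.929). There 0 of 96 (0%) passed; 6 had an unadjusted limma p under 0.05, and 5 passed when the software's total gene signal or the deposited processed values were used instead. The sign of both miR-146a differences changed under some settings and neither passed under any. The intervals leave room for a change of about the size of their limits, and the data do not show that the levels were equal. Ha-ras tumours stood 0.12 (SE 0.21) above untreated controls, and Ctnnb1 tumours 0.01 (SE 0.17) above Ha-ras tumours.

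The level of miR-146a rested on 1 of its probes. A_54_P2317 was detected on all 16 arrays, with scaled intensities of 33.2, 52.0 and 74.99 in untreated controls, 59.8, 52.9 and 51.5 in phenobarbital controls, 80.5, 32.2 and 80.9 in Ha-ras tumours, and 37.8 to 92.6 (median 64.6) in Ctnnb1 tumours. A_54_P2318 was detected on no array and entered the mean at the floor, which shrinks the log2 differences above and their intervals relative to those of the detected probe. The room for change is therefore wider on that probe than those intervals state. On A_54_P2317 alone the log2 difference was 0.14 between Ctnnb1 tumours and phenobarbital controls, 0.11 between phenobarbital and untreated controls, and 0.23 between Ha-ras tumours and untreated controls. Within the Ha-ras tumours this probe separated tumour 2 from the others, and among untreated controls it was lowest in sample 1.

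miR-146b was high in the Ha-ras tumours and at or near background elsewhere. Its log2 level was 8.26, 9.17 and 7.67 in Ha-ras tumours 1, 2 and 3. It was at the floor of 4.64 in untreated control 1, and 4.79 and 4.99 in untreated controls 2 and 3. All 3 phenobarbital controls and all 7 Ctnnb1 tumours were at the floor. Every Ha-ras tumour lay above every other sample, a separation that also held for 16.7% of the 96 miRNAs against untreated controls and for 6.25% against Ctnnb1 tumours, counting those higher in Ha-ras tumours.

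In order, the means were 8.37 ± 0.75 (SD, n = 3) in Ha-ras tumours and 4.81 ± 0.17 (n = 3) in untreated controls, with phenobarbital controls and Ctnnb1 tumours not well above background on any array. Ha-ras tumours were 3.56 above untreated controls on the log2 scale (SE 0.24), or 11.8-fold, with 2 of 3 untreated controls detected. The difference is set in part by the floor. The dimmer miR-146b probe was detected in none of those controls and entered there at the floor. The SE rests on 1 spread pooled over 4 groups. Phenobarbital controls and Ctnnb1 tumours had an SD of 0 at the floor, so that SE is too small for Ha-ras tumours. Ha-ras tumours were at least 11.9-fold above Ctnnb1 tumours, where the dim group is taken at the lowest signal detected on each array. The fitted differences of 3.56 and -3.73 were the largest in size among the 96 miRNAs in both comparisons with Ha-ras tumours; the next were 1.97 and 1.79, and the median sizes were 0.31 and 0.28. In these comparisons 28 of 96 (29.2%) and 29 of 96 (30.2%) miRNAs passed an adjusted p of 0.05. Of the 28, 9 (9.38% of the 96) were higher and 19 (19.8%) lower in Ha-ras tumours. Scaling on all mouse probes turned that split into 12 higher and 0 lower, and shifted the median difference over the 96 from -0.06 to 0.28; quantile scaling gave 12 higher and 11 lower. Of the 29, 16 were higher and 13 lower in Ctnnb1 tumours, against 2 higher and 20 lower with all-probe scaling, where the median went from 0.08 to -0.32, and 22 higher and 10 lower with median scaling. The paralogs thus had changes of 3.56 and 0.12 in the same tumours against the same controls.

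**Figure D2:**
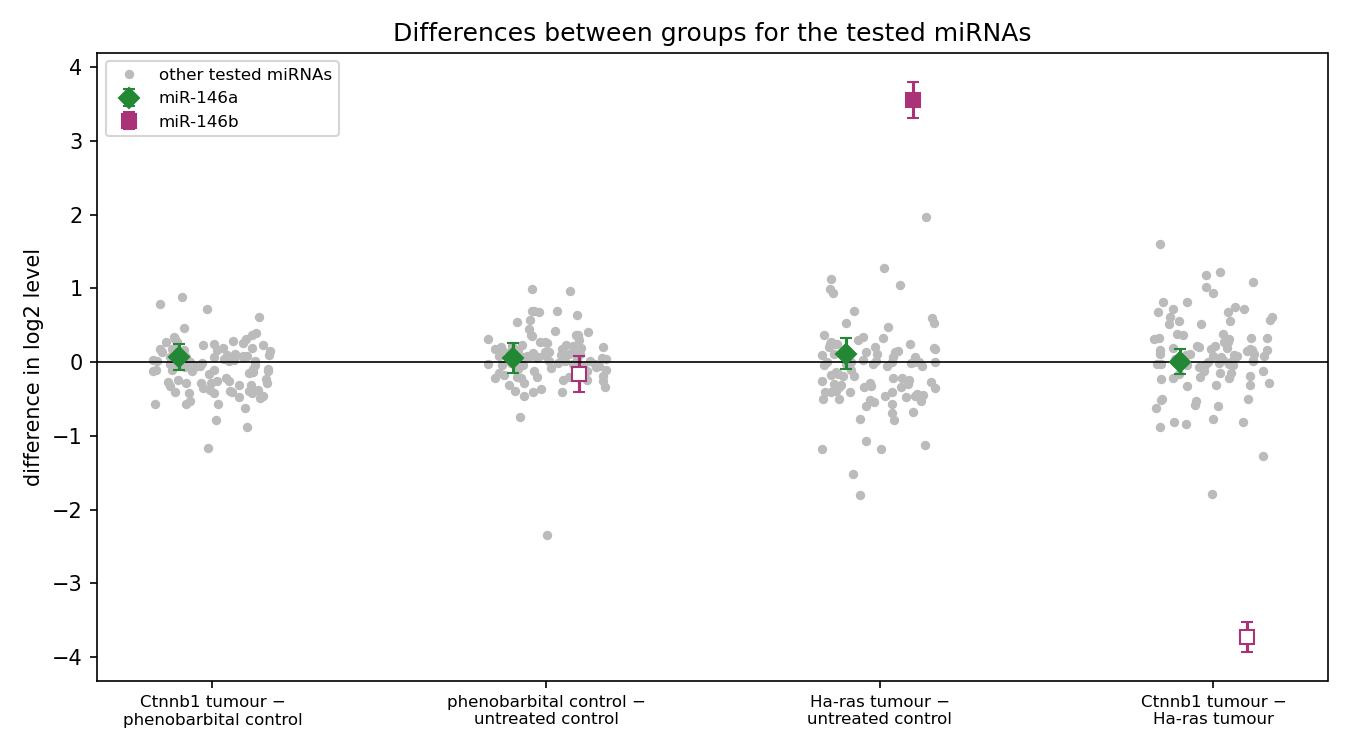
Difference in log2 level between groups (y axis) for the 96 tested miRNAs in 4 comparisons (x axis); grey points are other miRNAs, the diamond is miR-146a, the square is miR-146b, bars are ± 1 SE, and an open square marks a comparison in which 1 group was not well above background on any array. miR-146b lies at 3.56 and -3.73 in the comparisons with Ha-ras tumours, outside all other points, and miR-146a lies between 0.01 and 0.12 in all 4. miR-146b is left out where neither group had it above background. The miR-146b bars rest on 1 spread pooled over 4 groups. Phenobarbital controls and Ctnnb1 tumours were at the floor there, so the bars do not give each comparison's own spread.

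The 2 miR-146b probes gave the same order of samples where it was measured. On the brighter probe, A_54_P2006, the scaled intensity was 720, 1362 and 502 in Ha-ras tumours 1, 2 and 3. On A_54_P2005 it was 131, 243 and 83.1. Both put tumour 2 first and tumour 3 last. A_54_P2006 was 25.2-fold higher in Ha-ras tumours than in untreated controls (log2 4.65) and at least 28.4-fold higher than in Ctnnb1 tumours. A_54_P2005, not detected outside Ha-ras tumours, was at least 5.10-fold and 4.97-fold higher, bounds set by its lower brightness. The size of the difference therefore depended on the probe, and its direction did not.

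The Ha-ras tumour with the most miR-146b signal had the least miR-146a signal. Tumour 2 gave 1362 on the brighter miR-146b probe and 32.2 on the detected miR-146a probe, which was the lowest of all 16 arrays. Tumours 1 and 3 gave 720 and 502 on the former and 80.5 and 80.9 on the latter. Tumours 1 and 3 lay above the highest untreated control (74.99) on that miR-146a probe, and tumour 2 lay below the lowest (33.2). The other miR-146a probe, A_54_P2318, had 5 of 10 spots well above background in Ha-ras tumour 1 and 0 on each other array. That array was the brightest, with a 75th percentile of 1248 before scaling. After scaling the probe read 15.5 there, 7.18 in Ha-ras tumour 2, 15.2 in Ha-ras tumour 3 and up to 18.7 in Ctnnb1 tumours. Whether a probe of one paralog also bound the other, with 20 of 22 bases shared, was not tested. Repeat spots of the members' probes varied by 3.92% to 21.9% of their mean where detected, with a median of 10.8%.

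**Figure D3:**
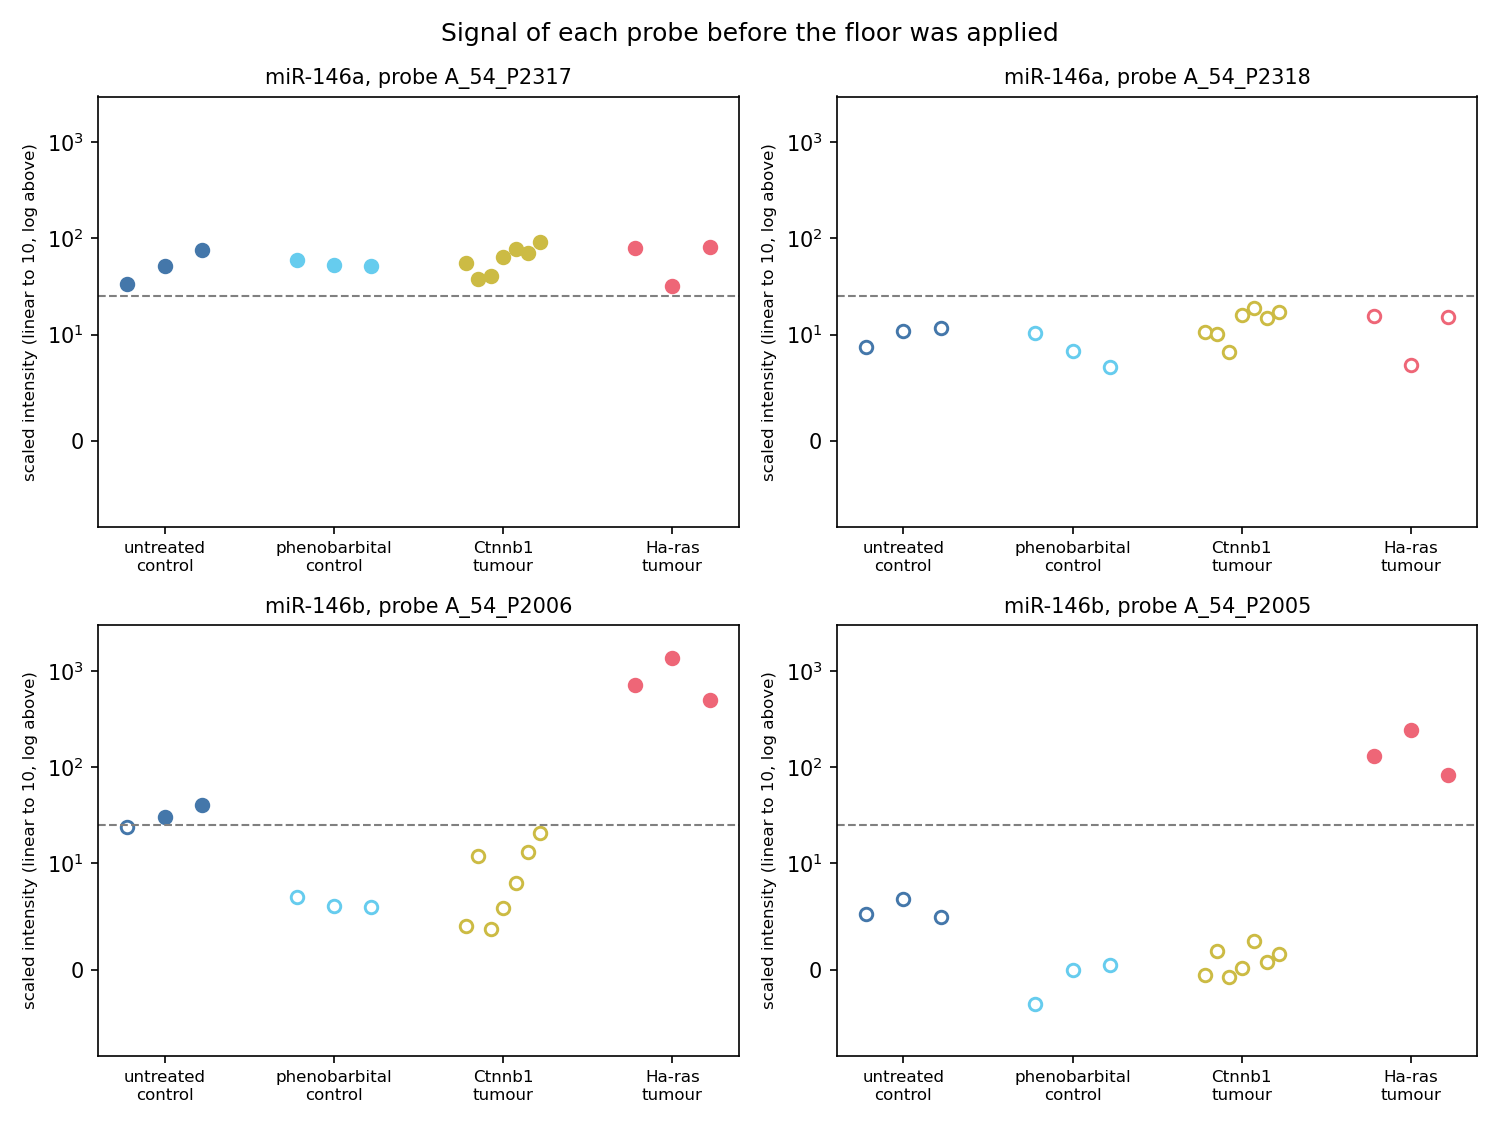
Scaled intensity of the 4 probes in each of the 16 samples before the floor was applied (y axis, linear to 10 and logarithmic above), by group; each point is 1 sample. Both miR-146b probes are highest in the 3 Ha-ras tumours (83.1 to 1362), and on both the 3 untreated controls lie above the 3 phenobarbital controls; the miR-146a probes overlap in all groups.

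Arrays were spread over 3 slides, which did not hold the groups evenly. The first slide held all 7 Ctnnb1 tumours and Ha-ras tumour 1, and there the brighter miR-146b probe read 720 in the Ha-ras tumour and 3.87 to 20.4 (median 8.13) in the others. The second slide held Ha-ras tumours 2 and 3 at 1362 and 502, untreated control 1 at 23.6, and phenobarbital controls 4 and 5 at 6.80 and 6.01. The third slide held untreated controls 2 and 3 at 30.6 and 40.3 and phenobarbital control 6 at 5.88. Untreated controls lay above phenobarbital controls on both slides that held them, and Ha-ras tumours above all other samples on both slides that held them. Ctnnb1 tumours and phenobarbital controls shared no slide. With slide as a fixed block, every comparison of the Ctnnb1 tumours therefore depends on Ha-ras tumour 1, the only other sample on their slide.

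Near and below the floor, miR-146b gave a weak signal in untreated controls that phenobarbital controls did not give. On A_54_P2006, without a floor, scaled intensities were 23.6, 30.6 and 40.3 in untreated controls 1, 2 and 3, with 4 of 10, 9 of 9 and 8 of 9 spots well above background. They were 6.80, 6.01 and 5.88 in phenobarbital controls 4, 5 and 6, with 0 spots above background in each. On A_54_P2005 they were 5.27, 6.62 and 4.99 against -3.18, 0.05 and 0.47. The groups did not overlap on either probe.

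The means on A_54_P2006 were 31.5 ± 8.36 (SD, n = 3) and 6.23 ± 0.50 (n = 3), and on A_54_P2005 5.63 ± 0.87 and -0.89 ± 2.00. The exact two-sided permutation test gave p = 0.1 on each probe, the smallest value that 3 samples against 3 allow, and 0.267 after Benjamini-Hochberg adjustment over the 8 such tests made on the members' probes. Groups that do not overlap were common in this comparison: 63 of the 196 probes of tested miRNAs (32.1%) had such groups, 21 of them lower in phenobarbital controls. The separation on A_54_P2006 was present under each of 5 scalings, no scaling included, the closest approach being the scaling used here, with 23.6 in the lowest untreated control against 6.80 in the highest phenobarbital control. With the floor, the fitted log2 difference was -0.16. It was -1.97 with the software's total gene signal, where all 3 phenobarbital controls held 0.1, the software's value for undetected. With the brighter probe and no floor, an alternative chosen after the data had been seen, the difference was -2.31. miR-146b entered the fit only through the Ha-ras tumours, the group it was selected on. These fitted differences are therefore given with no test.

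Ctnnb1 tumours lay with the phenobarbital controls. On A_54_P2006 without a floor they ran from 3.87 to 20.4, all 7 below the lowest untreated control and 4 above the highest phenobarbital control. The highest, tumour 7, had 0 spots well above background, although the software gave it a total gene signal of 14.79 for miR-146b, against 0.1, its value for undetected, in the other 6 tumours and in all 3 phenobarbital controls. Against phenobarbital controls the exact two-sided permutation p was 0.417 for A_54_P2006, 0.142 for A_54_P2005, 0.517 for A_54_P2317 and 0.075 for A_54_P2318, where the smallest possible was 0.00833. None of the 4 separated the groups, against 14.3% of the 196 probes, and no fold is given for miR-146b because neither group had it above background.

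miR-146b*, the opposite strand of the same hairpin, had 4 probes, and none of them was detected on any array, Ha-ras tumours included. The probe with the highest readings in those tumours, A_54_P3628, gave 3.84, 7.505 and 0.85, below detection in each. Levels below background have only an upper limit, and no ratio of the strands is given.

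miRNAs with the most similar profiles were found by the root mean square difference over the 16 arrays between levels centred and scaled to an SD of 1 for each miRNA. For miR-146b these were miR-31 (0.313), miR-34a (0.610) and miR-23a (0.650), against a median of 1.51 over the other 95 tested miRNAs. miR-31 was 5.98, 5.99 and 5.88 in Ha-ras tumours and between 4.64 and 5.05 in the remaining samples. miR-34a, a p53 target, was 8.68, 8.97 and 8.08 in Ha-ras tumours, with tumour 2 highest and tumour 3 lowest, the order also seen for miR-146b, and it reached 8.02 in Ctnnb1 tumour 6. For miR-146a the nearest were let-7i (0.763), miR-652 (0.836) and miR-142-3p (0.850), against a median of 1.31. The paralogs were 1.39 apart: miR-146a ranked 37 of 95 among the miRNAs nearest to miR-146b, and miR-146b ranked 65 of 95 from miR-146a. These distances describe 16 arrays that share slides and scaling. miR-146b was at the floor on most arrays, so its nearest profiles are largely those high in Ha-ras tumours, the trait it was selected on.

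Because miR-146a is abundant in immune cells, miRNAs of leukocytes were examined beside it. Of 5 on the list, miR-142-3p and miR-223 were detected on all arrays, miR-142-5p on 3, and miR-150 and miR-155 on none. The summed scaled level of the list was 222 to 486 in Ha-ras tumours, 281 to 480 in untreated controls, 396 to 449 in phenobarbital controls and 305 to 537 in Ctnnb1 tumours. Of the 2 tested, 0 passed, and 0 had an unadjusted limma p under 0.05, between Ha-ras tumours and untreated controls, against 29.2% of the 96 that passed. There miR-142-3p, a miRNA of all blood lineages, differed by -0.45 (SE 0.39, limma adjusted p = 0.425) and miR-223, a myeloid miRNA, by -0.47 (SE 0.27, limma adjusted p = 0.227). miR-223 was 0.82 (SE 0.23) higher in Ctnnb1 than in Ha-ras tumours (limma adjusted p = 0.0188), a call lost with all-probe scaling (0.36, adjusted p = 0.41), quantile scaling (adjusted p = 0.0529), normexp background (adjusted p = 0.05001) and slide as a block (adjusted p = 0.274). In bulk tissue, fewer cells of a type and less RNA per cell cannot be told apart.

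Markers of 3 further cell types were examined in the same way. Of 7 endothelial and mesenchymal miRNAs 5 were detected and 3 tested, and 2 of the 3 were lower in Ha-ras tumours than in untreated controls, against 19.8% of the 96: miR-199a-3p of stellate cells and fibroblasts fell by 1.51 on the log2 scale (limma adjusted p = 0.000509) and the smooth muscle miRNA miR-143 was at least 1.4-fold lower (limma adjusted p = 0.0146). miR-143 was not well above background in any Ha-ras tumour, and its mean log2 level was 5.32 in untreated controls. The miR-143 call was lost with all-probe scaling (adjusted p = 0.0656), normexp background (adjusted p = 0.171) and slide as a block (adjusted p = 0.314), and that of miR-199a-3p with all-probe scaling (adjusted p = 0.0656). miR-145 and miR-214 were detected on no array. The summed level of that list was 657 to 805 in Ha-ras tumours, 794 to 1002 in untreated controls, 1021 to 1025 in phenobarbital controls and 701 to 951 in Ctnnb1 tumours. Of 2 tested erythroid and 5 hepatocyte miRNAs, 0 passed in that comparison, against 29.2% of the 96, and 0 had an unadjusted limma p under 0.05. In Ctnnb1 against Ha-ras tumours, 2 of 5 hepatocyte miRNAs were lower, against 13.5% of the 96: miR-122 (-0.59, limma adjusted p = 0.0407) and miR-101b (-0.63, limma adjusted p = 0.0186). The summed hepatocyte level was 10228 to 20770 in Ctnnb1 tumours and 17927 to 24814 in Ha-ras tumours. The miR-101b call was lost with slide as a block (adjusted p = 0.359), and that of miR-122 with slide as a block (0.648), median scaling (0.0809) and quantile scaling (0.896). The part of these markers in the miR-146b levels was not tested.

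miRNAs that are regulated by NF-kappaB or act on its pathway formed the second list. Of 10 on the list, miR-21, miR-221 and miR-125b-5p were detected on all arrays and miR-301a on 11, whereas miR-155, miR-9, miR-222, miR-132, miR-147 and miR-181b were detected on none. Between Ha-ras tumours and untreated controls 1 of the 4 tested was higher (9.38% of the 96 were), 1 lower (19.8% were) and 2 did not pass, with a median difference of 0.34 against -0.06 over all 96. miR-21, a miRNA raised in many carcinomas, was 13.32, 13.66 and 13.51 in Ha-ras tumours and 11.91, 12.35 and 12.39 in untreated controls, a rise of 1.28 (SE 0.27, limma adjusted p = 0.00445) with no overlap. miR-125b-5p fell by 0.44 (SE 0.13, limma adjusted p = 0.0229), a call lost with all-probe scaling (-0.10, adjusted p = 0.81) and with slide as a block (-0.32, adjusted p = 0.307). miR-221, which acts on the cell cycle inhibitor p27, differed by 0.53 (SE 0.20, limma adjusted p = 0.0549), with no overlap between the groups. It passed with all-probe scaling (1.09, adjusted p = 0.0103) and quantile scaling (0.56, adjusted p = 0.0295). miR-301a differed by 0.15. In this comparison 16.7% of the 96 were higher in Ha-ras tumours with no overlap, the separation seen for miR-21 and miR-221.

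Between the tumour groups miR-21 and miR-221 were lower in Ctnnb1 than in Ha-ras tumours, by 0.88 and 0.50 on the log2 scale (limma adjusted p = 0.0179 and 0.038), and the other 2 did not pass; 13.5% of the 96 were lower. With slide as a block the Ctnnb1 minus Ha-ras differences were -0.70 and -0.67, and neither passed (limma adjusted p = 0.284 and 0.186). Among the Ha-ras tumours, that comparison rests on tumour 1 alone. The miR-21 call was also lost with quantile scaling (0.217), and that of miR-221 with median scaling (0.117) and normexp background (-0.19, adjusted p = 0.345). Between Ctnnb1 tumours and phenobarbital controls, and between phenobarbital and untreated controls, 0 of the 4 passed limma; 1 (miR-125b-5p) and 0 had an unadjusted p under 0.05. miR-155, another NF-kappaB-induced miRNA of activated leukocytes, was detected on no array of any group, so it cannot be compared between groups.

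**Figure D4:**
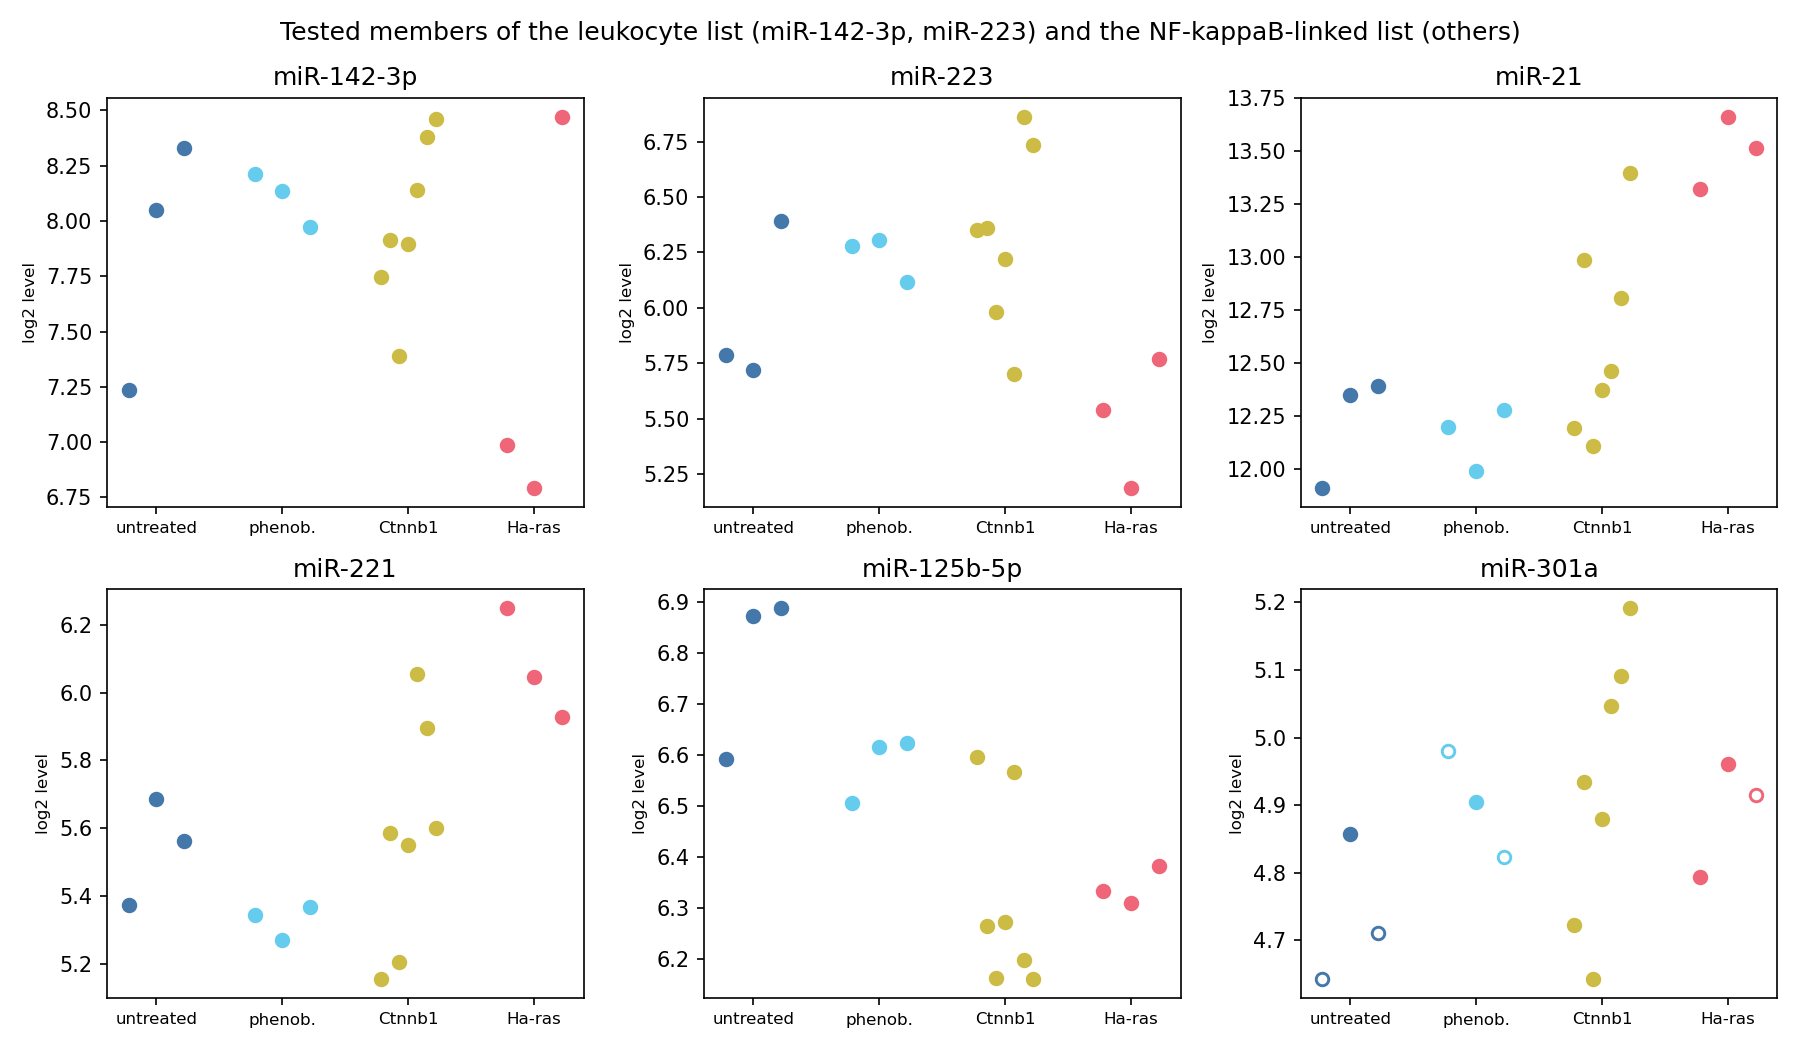
Log2 level (scaled intensity) in each of the 16 samples, by group, of the tested miRNAs of the leukocyte list (miR-142-3p and miR-223) and of the NF-kappaB-linked list (miR-21, miR-221, miR-125b-5p and miR-301a); each point is 1 sample, open where the miRNA was not detected on that array, and each panel has its own y axis that does not start at 0. miR-21 is at 13.32 to 13.66 in Ha-ras tumours and at most 12.39 in untreated controls, and miR-142-3p and miR-223 overlap between these groups.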

How the data were processed

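Single-colour Agilent miRNA arrays of 16 samples were analysed. Per the file headers, the authors extracted the deposited spot intensity values with Agilent Feature Extraction 10.7.3.1, which subtracts background; no normalization between arrays is recorded for them. The authors' deposited table of processed values is on a log2 scale by comparison with the scanner values, with a lowest entry of -1 and its normalization not given in the sources used here; it served as an alternative. R 2.14.1 is named in the submitters' processing notes, and 25 ng of total RNA was labelled per the labels.

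From these, control spots and outlier flags were removed, spots averaged per probe, and each array scaled by its 75th percentile over the 117 probes detected on all arrays (386 to 1248 before scaling). Signals were floored at 25.0, log2 values were averaged over the probes of a miRNA, and 1 limma fit (limma 3.58.1, R 4.3.3) of 4 group means was made over 96 miRNAs with Benjamini-Hochberg adjustment at 0.05. Array number limits precision. Within groups, arrays correlated at 0.926 to 0.993 over the tested miRNAs. The fit was tested on simulated data.

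The members, the lists (leukocyte, NF-kappaB-linked, endothelial and mesenchymal, erythroid, hepatocyte) and the tests were chosen with earlier results of these data known. Named were the members and their probes, the opposite strand, the leukocyte and NF-kappaB-linked lists, and the 3 miRNAs of most similar profile to each member; miR-199a-3p, miR-143, miR-122 and miR-101b were named with values after their values were seen. Alternatives covered scaling, background, floor, signal, filter, slide, replicate number and each sample left out.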

Additional observations from a re-analysis of the deposited data

How the results depend on the processing

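The direction of the miR-146b difference in Ha-ras tumours held under every alternative run, while its size did not. Log2 differences from untreated controls (3.56) were 2.12 with normexp background, 4.77 with total gene signal, 4.75 with deposited values, and, in alternatives added after the data had been seen, 4.65 with the brighter probe, 2.47 with the dimmer and 4.68 with the brighter without a floor (3.16 to 3.91 leaving out 1 sample). For Ctnnb1 minus Ha-ras tumours (-3.73) they were -2.22 with normexp, -4.67 with a lower floor, -6.58 with total gene signal, -4.98, -2.47 and -6.60 in the same 3 added alternatives, and -4.07 to -3.33 leaving out 1 sample. For phenobarbital minus untreated controls, miR-146b (-0.16) was -1.97 with total gene signal and -0.25 to -0.07 leaving out 1 sample. The cause was not tested. miR-146b between Ctnnb1 tumours and phenobarbital controls was not fitted under these settings, because neither group was above background; its signals without a floor are given by probe.

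miR-146a changed sign in every comparison under some setting or with some sample left out. For Ctnnb1 tumours minus phenobarbital controls (0.07) it was -0.031 with normexp, and 0.02 to 0.12 leaving out 1 sample. It was -0.19 with slide as a fixed block, which links these groups only through Ha-ras tumour 1. For phenobarbital minus untreated controls (0.05) it was -0.046 with all-probe scaling, -0.037 with quantile scaling, -0.10 with total gene signal, -0.019 with deposited values, and -0.10 to 0.20 leaving out 1 sample, the lowest without untreated control 1. For Ctnnb1 minus Ha-ras tumours (0.01) it was -0.32 with all-probe scaling, -0.38 with deposited values, and -0.21 to 0.12 leaving out 1 sample. For Ha-ras tumours minus untreated controls (0.12) it stayed positive under the 14 other settings, at 0.017 to 0.45. Leaving out 1 sample there gave -0.04 to 0.34.

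Counts of called miRNAs changed more. The 8 of Ctnnb1 tumours minus phenobarbital controls became 0 (all-probe scaling), 4 (median scaling, normexp, or miRNAs detected on all arrays), 2 (deposited values), 1 (slide fixed) and 20 (slide random, correlation -0.115), and 5 to 18 leaving out 1 sample (5 without phenobarbital control 6, 18 without Ctnnb1 tumour 1). The 0 of phenobarbital minus untreated controls became 5 with total gene signal or deposited values, and 0 to 1 leaving out 1 sample (1 without untreated control 1). The 28 of Ha-ras tumours minus untreated controls became 12 (all-probe scaling), 18 (normexp), 9 (deposited values or slide fixed), and 13 to 33 leaving out 1 sample (13 without untreated control 2 or Ha-ras tumour 1, 18 without untreated control 3). The 29 of Ctnnb1 minus Ha-ras tumours became 15 (normexp), 19 (detected on all arrays), 8 (slide fixed), and 5 to 29 leaving out 1 sample (11 without Ha-ras tumour 1, 5 without Ha-ras tumour 2). With slide fixed, both comparisons of the Ctnnb1 tumours depend on Ha-ras tumour 1, the only other sample on their slide.

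Samples of the same replicate number did not consistently deviate together (correlations -0.77 to 0.58 over 6 pairs). So few pairs cannot settle whether the numbers pair the samples, and the main fit treated them as unpaired. With a replicate block, the counts were 1 for Ctnnb1 tumours minus phenobarbital controls and 10 for Ctnnb1 minus Ha-ras tumours. With that block, miR-146a for phenobarbital minus untreated controls was -0.28. These control groups share no replicate number, so that value links them only through the Ctnnb1 tumours and is not a paired difference. Signal over background limits miR-146b outside Ha-ras tumours, and the second miR-146a probe throughout.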
